A study of Rattus norvegicus with 8 samples.

Results

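Maoa and Maob encode the monoamine oxidases, the enzymes blocked by clorgyline and rasagiline. Their rows (ENSRNOG00000002848, rat Maoa, and ENSRNOG00000029778, rat Maob) were taken by identifier from a table of 23918 genes, so 2 of 23918 genes are described here in all 8 tumours. The tumours had been grown under the skin of 6-week-old female NOD-scid mice, which lack B and T cells, from ELT3-V3 cells, a rat uterine leiomyoma line that serves as a model of lymphangioleiomyomatosis. Treatment was allotted at random once tumours measured 150 to 200 mm3. There were 4 groups of 2 tumours: rapamycin plus clorgyline (clorgyline at 10 mg/kg per day), rapamycin plus rasagiline (rasagiline at 1 mg/kg per day), rapamycin alone at 0.25 mg/kg per day, and controls given the vehicle, a mixture of carboxymethylcellulose (0.2%) and Tween-80 (0.25%). A rapamycin dose is stated only for rapamycin alone, and no group received clorgyline or rasagiline without rapamycin. All tumours derive from a single cell line in hosts of the same strain, and the labels do not say that each tumour came from its own mouse, so p-values speak of the spread among these tumours, which may be technical.

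Monoamine oxidases are flavin-containing enzymes of the outer mitochondrial membrane that oxidise amines to aldehydes and release hydrogen peroxide and ammonia. The A form prefers serotonin and noradrenaline and is abundant in fibroblasts and placenta. The B form prefers phenylethylamine and is the form of platelets and glia, and both forms oxidise dopamine. Clorgyline (selective for A) and rasagiline (selective for B) are propargylamines that bind the flavin covalently. Such inhibition acts on the protein, and transcript levels do not measure enzyme activity. Rapamycin inhibits mTORC1, the growth-controlling kinase complex that is overactive in lymphangioleiomyomatosis. The comparisons ask how much message for each enzyme the tumours carried and whether it differed with treatment.

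Levels are TPM, which divides reads by gene length and scales each library to the same sum. TPM can therefore be set side by side between genes but keeps no sequencing depth, so depth was unknown. Between 12317 and 13270 genes reached 1 TPM in a library. Rapamycin replicate 2 stood apart from the other libraries, with a root mean square distance of 0.682 (log2) from the mean of the others over 13686 genes, against 0.402 to 0.529 for the remaining 7, and it had the fewest genes at 1 TPM. The main differences that include this library are given with and without it. Refits with another scaling or pseudocount, and all intervals, are given with it only. The groups share 1 variance in the fit, so this library also bears on intervals of comparisons between other groups. The table carries no gene symbols, and none of its identifiers could be matched to a symbol, so the tumours could not be checked against smooth muscle, melanocytic or stromal markers.

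Maoa was well expressed in every tumour. It stood at 24.8 and 32.6 TPM in replicates 1 and 2 with rapamycin plus clorgyline, and at 33.1 and 31.2 TPM with rapamycin plus rasagiline. It stood at 32.4 and 24.6 TPM with rapamycin alone, and at 35.8 and 30.3 TPM in controls. The 2 lowest tumours were rapamycin replicate 2 and clorgyline combination replicate 1, the highest was control replicate 1, and every group's range overlapped that of every other group. The highest tumour exceeded the lowest by 1.45 times. Maoa exceeded between 79.1% and 83.8% of the genes listed in a library, and the median over the 8 tumours was 31.8 TPM.

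Maob was a weakly expressed gene. It stood at 1.72 and 2.17 TPM in replicates 1 and 2 with rapamycin plus clorgyline, and at 1.17 and 2.84 TPM with rapamycin plus rasagiline. It stood at 2.74 and 0.206 TPM with rapamycin alone, and at 2.62 and 1.31 TPM in controls. Again all groups overlapped: both clorgyline combination tumours lay between the controls, while the rasagiline combination and rapamycin alone each held a tumour above and a tumour below them. The single value under 1 TPM was that of rapamycin replicate 2, the library that stood apart. Maob exceeded between 39.0% and 53.9% of the genes listed, with a median of 1.94 TPM, and its highest tumour was 13.8 times its lowest, or 2.42 times without rapamycin replicate 2. In bulk tissue, fewer cells that express a gene and less RNA per cell cannot be told apart, and reads from mouse host cells could be counted for the rat genes; their part in these levels was not tested.

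**Figure D1:**
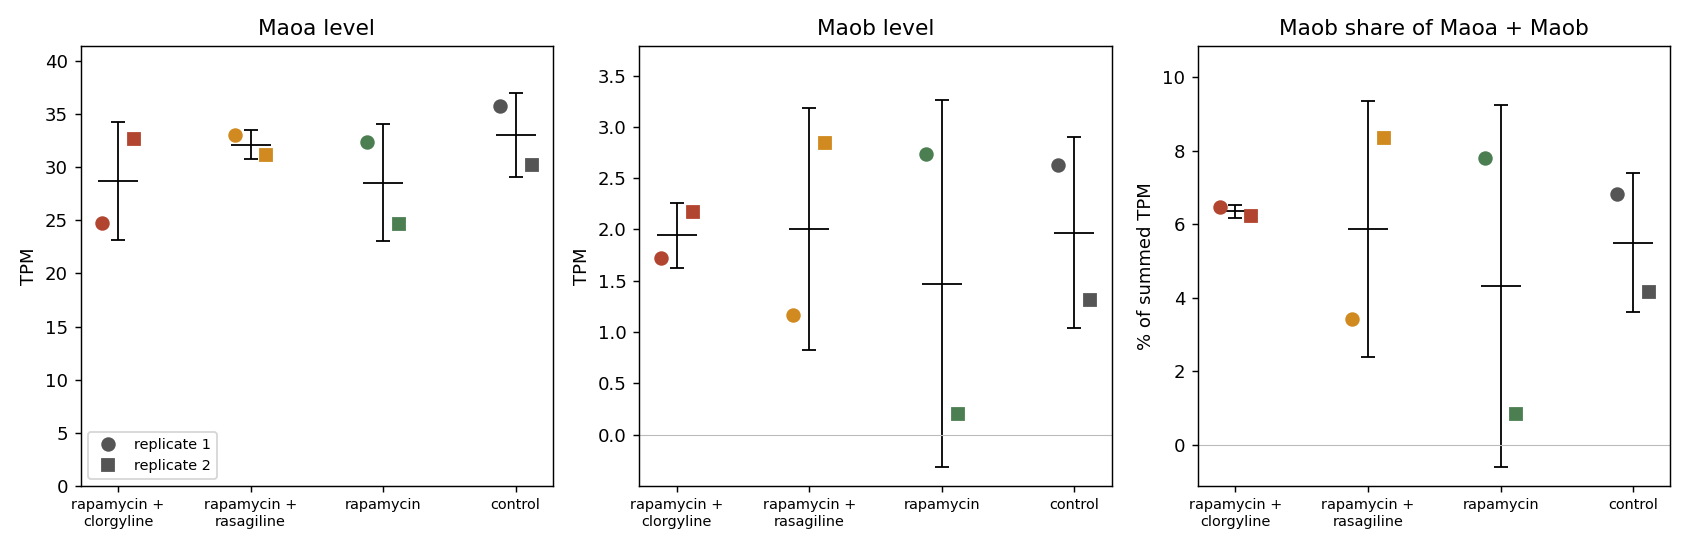
Level of Maoa (left) and Maob (middle) in TPM, and Maob as a percentage of the summed TPM of the pair (right), by treatment group. Points are single tumours (circle, replicate 1; square, replicate 2), the horizontal line is the mean and bars are the SD of 2 tumours, which reach below 0 where the tumours differ most. Maoa lies between 24.6 and 35.8 TPM and Maob between 0.206 and 2.84 TPM, with overlapping groups in each panel.

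Maoa was the main monoamine oxidase transcript in all 8 tumours. The ratio of Maoa to Maob was 14.4 and 15.1 with rapamycin plus clorgyline, 28.3 and 10.99 with rapamycin plus rasagiline, 11.8 and 119.9 with rapamycin alone, and 13.6 and 23.0 in controls. Its median was 14.7, and only rapamycin replicate 2 was above 30. On the log2(TPM + 1) scale Maoa exceeded Maob by a mean of 3.55 over the tumours (higher in 8 of 8; exact sign-flip permutation test over tumours, two-sided p = 0.00781, the smallest that 8 tumours can give). The difference was between 3.42 and 3.61 when any single tumour was left out. Maob made up 6.48% and 6.22% of the summed level with rapamycin plus clorgyline, 3.42% and 8.34% with rapamycin plus rasagiline, 7.79% and 0.827% with rapamycin alone, and 6.83% and 4.16% in controls. The summed level of the pair ranged from 24.8 to 38.4 TPM, and so followed Maoa.

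The genes are immediate neighbours on chromosome X of the RefSeq rat assembly GRCr8, with no gene listed between them and on opposite strands, so that their 3′ ends face each other. Each has its own upstream region, and these are shown because the neighbours differed in level in every tumour. In human cells the promoters of both genes are known to carry GC boxes, which bind factors of the Sp family. The 250 bases before each annotated start (RefSeq, GRCr8; Maoa at chrX:8681373-8681622 on the minus strand, Maob at chrX:8490155-8490404 on the plus strand) read as follows, 5′ to 3′ on the strand of the gene, with each GC box core (GGGCGG on either strand) in capitals.
Maoa: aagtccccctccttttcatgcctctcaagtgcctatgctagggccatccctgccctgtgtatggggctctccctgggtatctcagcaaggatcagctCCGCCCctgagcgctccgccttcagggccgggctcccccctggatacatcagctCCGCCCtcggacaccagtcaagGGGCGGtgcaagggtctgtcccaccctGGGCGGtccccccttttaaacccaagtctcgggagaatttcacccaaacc
Maob: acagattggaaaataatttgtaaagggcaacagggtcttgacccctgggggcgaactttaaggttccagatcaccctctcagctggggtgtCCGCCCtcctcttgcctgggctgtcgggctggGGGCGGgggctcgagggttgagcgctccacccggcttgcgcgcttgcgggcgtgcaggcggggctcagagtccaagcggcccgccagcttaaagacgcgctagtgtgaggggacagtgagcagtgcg
The Maoa window held 4 matches, 2 on each strand and none overlapping, and the Maob window held 2, 1 on each strand. Among 33469 rat promoter windows of the same length, 30.5% held at least 1 match, 14.8% at least 2 and 3.67% at least 4. GC content was 62.4% for Maoa and 63.6% for Maob, against a median of 51.2% over all windows. Neither window held TATAAA on either strand, which 12.9% of windows did. A match is a description of letters, and no binding was measured in these tumours. Whether either sequence bears on the level of its gene was not tested.

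**Figure D2:**
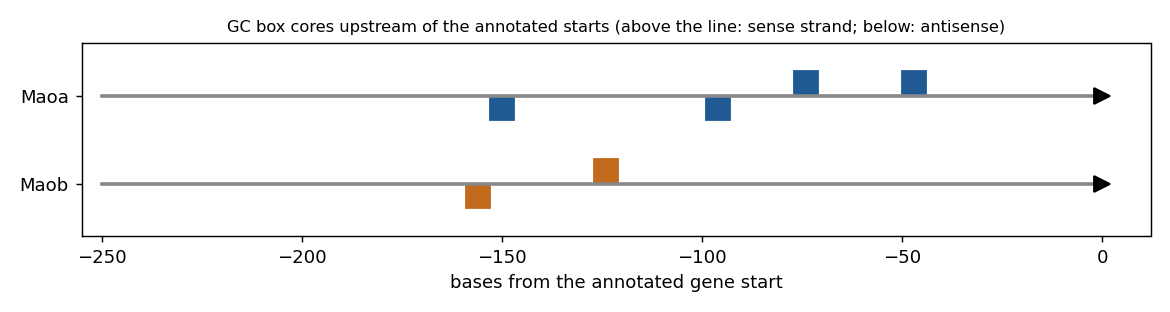
Position of GC box cores in the 250 bases before the annotated start of Maoa (top) and Maob (bottom), in bases from the start, which is the arrowhead at 0. Blocks above a line are on the strand of the gene and blocks below it on the other strand; Maoa has 4 and Maob 2.

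Rapamycin alone was compared with control to see whether this drug by itself went with a different level of either gene. Maoa averaged 28.5 ± 5.51 TPM with rapamycin and 33.0 ± 3.94 TPM in controls (SD, n = 2 each). Log2 differences are of log2(TPM + 1) unless another pseudocount is named. That of Maoa was -0.21 (95% interval -0.71 to 0.28). Maob averaged 1.47 ± 1.79 TPM with rapamycin and 1.97 ± 0.927 TPM in controls (SD, n = 2 each). Here the log2 difference was -0.45 (interval -1.76 to 0.86), or -1.07 with a pseudocount of 0.1 TPM in place of 1. Neither passed the test (limma fitted to all genes, Benjamini-Hochberg adjusted p = 0.616 for Maoa and 0.694 for Maob), in a comparison where 0.643% of the 13686 genes tested were called. The Maob difference rests on rapamycin replicate 2: without it the log2 difference was 0.37 (adjusted p = 0.726), and without rapamycin replicate 1 it was -1.26 (adjusted p = 0.126). That of Maoa was -0.02 without rapamycin replicate 2 and -0.40 without replicate 1, so the sign for Maoa held while its size followed the tumour kept.

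The clorgyline combination bears on Maoa, whose protein is the drug's target. Maoa averaged 28.7 ± 5.54 TPM with rapamycin plus clorgyline, against 33.0 ± 3.94 TPM in controls (SD, n = 2 each). The log2 difference was -0.20 (interval -0.70 to 0.29; limma adjusted p = 0.717), with 0.0146% of genes called. Against rapamycin alone, at 28.5 ± 5.51 TPM (SD, n = 2), the log2 difference was 0.01 (interval -0.49 to 0.50; limma adjusted p = 0.996), with 0% of genes called. Expressed as a ratio of TPM + 1, that interval runs from 0.713 to 1.42. This was among the smallest differences of the comparison, since only 2.21% of genes differed by less, although the tumours within each of these groups differed by 7.83 and 7.79 TPM. Without rapamycin replicate 2 the log2 difference was -0.18, and without rapamycin replicate 1 it was 0.20. Maob, which clorgyline spares at selective doses, averaged 1.94 ± 0.317 TPM with rapamycin plus clorgyline (SD, n = 2). Its log2 difference was 0.02 from control (interval -1.29 to 1.33; limma adjusted p = 0.994) and 0.47 from rapamycin alone (interval -0.84 to 1.77; limma adjusted p = 0.798). The last value turned to -0.35 without rapamycin replicate 2.

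The rasagiline combination bears on Maob, the drug's selective target. Maob averaged 2.00 ± 1.18 TPM with rapamycin plus rasagiline and 1.97 ± 0.927 TPM in controls (SD, n = 2 each). The log2 difference was -0.0045 (interval -1.31 to 1.30; limma adjusted p = 0.999), with 1.57% of genes called. Leaving out rasagiline combination replicate 1 or 2 turned it to 0.41 or -0.42. Against rapamycin alone Maob differed by 0.44 log2 units (interval -0.86 to 1.75; limma adjusted p = 0.959), with 0.0146% of genes called, and it differed by -0.37 without rapamycin replicate 2. Maoa averaged 32.1 ± 1.35 TPM with rapamycin plus rasagiline (SD, n = 2), the closest pair of tumours of any group for this gene. Its log2 difference was -0.03 from control (interval -0.53 to 0.46; limma adjusted p = 0.949) and 0.18 from rapamycin alone (interval -0.32 to 0.67; limma adjusted p = 0.959). Without rapamycin replicate 2, the difference of Maoa from rapamycin alone was -0.01.

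The combinations were set beside each other although the inhibitors differ in dose (10 mg/kg per day of clorgyline and 1 mg/kg per day of rasagiline), so a difference between them could not be assigned to the compounds. The log2 difference of clorgyline combination minus rasagiline combination was -0.17 for Maoa (interval -0.67 to 0.33; limma adjusted p = 0.997) and 0.02 for Maob (interval -1.28 to 1.33; limma adjusted p = 1.00). Single tumours turned both signs: Maoa differed by 0.022 without clorgyline combination replicate 1, and Maob by -0.39 without rasagiline combination replicate 1. In this comparison 0.0219% of genes were called.

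To use all tumours, the average of the 3 groups given rapamycin was compared with control. The 6 treated tumours lay between 24.6 and 33.1 TPM for Maoa, against 30.3 and 35.8 TPM in controls, and between 0.206 and 2.84 TPM for Maob, against 1.31 and 2.62 TPM in controls. The log2 difference was -0.15 for Maoa (interval -0.56 to 0.26; limma adjusted p = 0.648) and -0.14 for Maob (interval -1.21 to 0.92; limma adjusted p = 0.877), where 2.44% of genes were called. Without rapamycin replicate 2 the differences were -0.087 for Maoa (limma adjusted p = 0.769) and 0.13 for Maob (limma adjusted p = 0.826), so the sign for Maob turned. Exact permutation of the 8 tumours gave two-sided p = 0.357 for Maoa and 0.929 for Maob. This design cannot go below 0.0714, and comparisons of 2 against 2 tumours cannot go below 0.333. Leaving out rapamycin replicate 2 gave p = 0.476 for Maoa and 0.857 for Maob in the exact permutation test. The log2 ratio of Maoa to Maob was taken on TPM + 1, so it is not the ratio of TPM listed above. It differed by -0.0058 between treated and control tumours (exact permutation test, two-sided p = 1.00). Without rapamycin replicate 2 it differed by -0.18 (p = 0.667 in the same exact test). With all 8 tumours and a pseudocount of 0.1 TPM the sign turned, to 0.19. The median log2 difference of all genes tested was 0.105 here. Against control it was 0.149 for the rasagiline combination, 0.085 for rapamycin alone and 0.065 for the clorgyline combination. When each library was rescaled to a common median, Maoa differed from control by -0.26 for the mean (limma adjusted p = 0.278). It differed by -0.20 for the rasagiline combination (limma adjusted p = 0.521). For rapamycin alone and the clorgyline combination it differed by -0.31 and -0.27 (limma adjusted p = 0.320 and 0.460). In the same order, this rescaling gave -0.25, -0.17, -0.54 and -0.047 for Maob (limma adjusted p = 0.762, 0.894, 0.600 and 0.976).

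**Figure D3:**
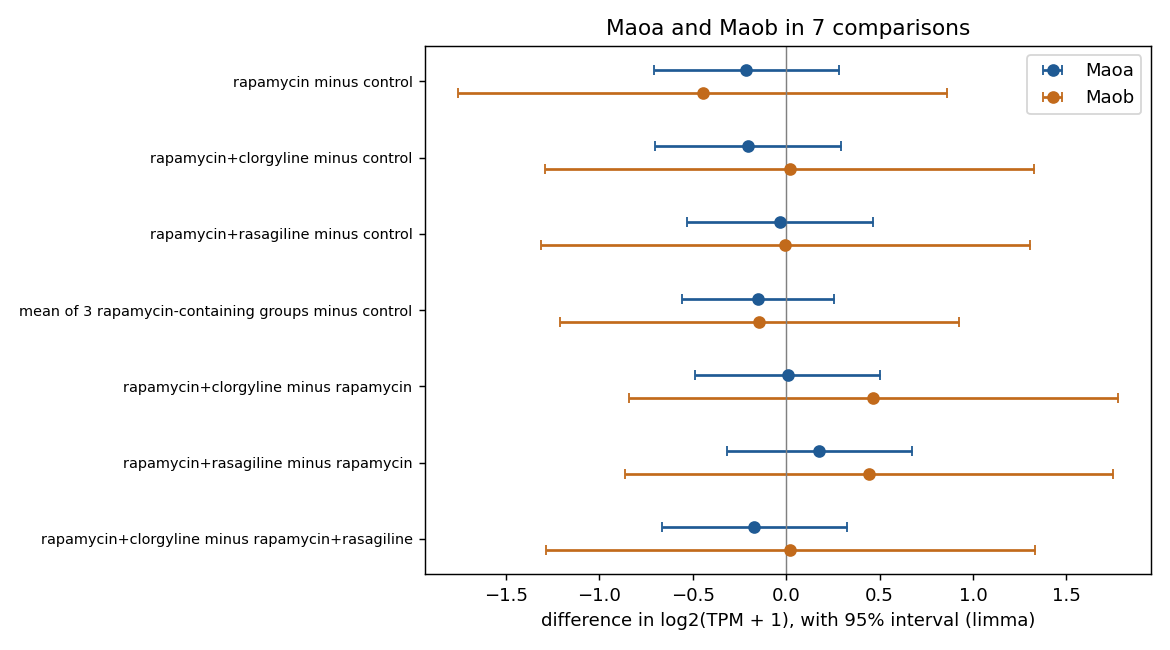
Differences of Maoa and Maob in log2(TPM + 1) in 7 comparisons, with 95% intervals from the limma fit to all 8 libraries (points, estimates; bars, intervals). Every interval crosses 0; those of Maoa lie between -0.71 and 0.67 and those of Maob between -1.76 and 1.77.

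Across the 7 comparisons neither gene was called, and the intervals were wider for Maob than for Maoa. As ratios of TPM + 1, those of Maoa reached from 0.612 at the lowest to 1.596 at the highest, and those of Maob from 0.296 to 3.42. The half-width of an interval between 2 groups was 0.497 log2 units for Maoa and 1.31 for Maob. A p above the threshold does not show that levels were equal.

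The spread between tumours of the same treatment was no smaller than the spread over all 8. The SD within groups was 0.211 for Maoa and 0.690 for Maob on the log2(TPM + 1) scale, and the SD over all tumours was 0.190 and 0.562 for the same genes. Without rapamycin replicate 2 the SD within groups was 0.187 for Maoa and 0.437 for Maob, and the SD over the 7 tumours was 0.161 and 0.338. Of the genes tested, 19.9% varied less over the 8 tumours than Maoa did, and 83.6% varied less than Maob. The median SD over all genes tested was 0.294. Maob had a mean above that of 12.6% of the genes tested while Maoa had a mean above that of 68.3%.

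**Figure D4:**
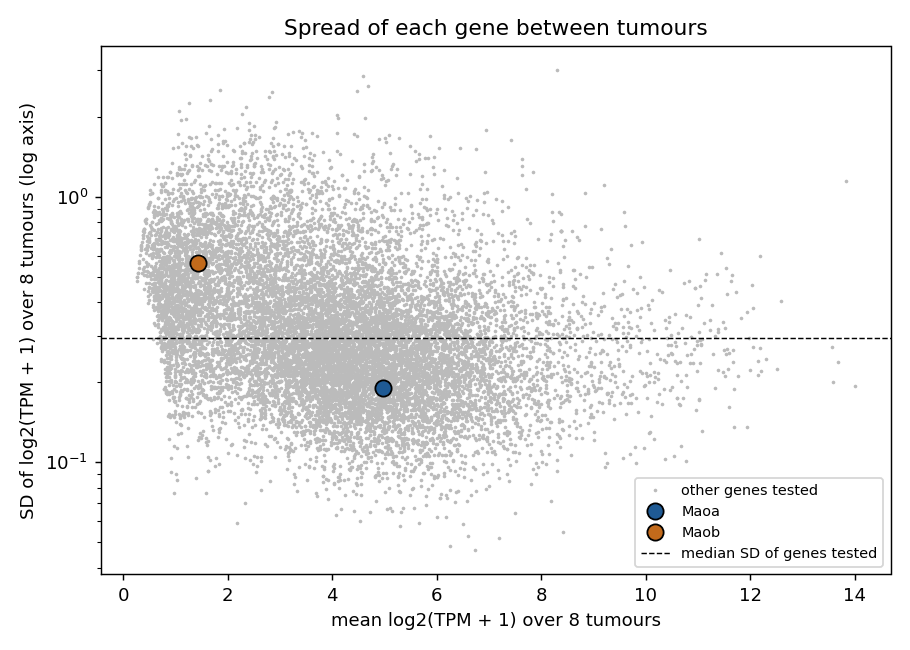
Mean of log2(TPM + 1) over the 8 tumours (horizontal) against its SD over the 8 tumours (vertical, log axis), with a grey point for each of 13686 genes tested. Maoa, at a mean of 4.97 and an SD of 0.190, lies under the median SD of 0.294 (dashed line), and Maob, at a mean of 1.43 and an SD of 0.562, lies above it.

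The gene whose log2(TPM + 1) followed Maoa most closely over the 8 tumours was ENSRNOG00000014434 (10.6 to 18.2 TPM, Pearson r = 0.977), the highest of 10223 genes with a mean of at least 5 TPM. For Maob it was ENSRNOG00000020640 (13.4 to 35.8 TPM, Pearson r = 0.962), the highest of 10224 such genes. These tumours share treatment groups and the genes were picked as the highest of many, so both values are descriptions.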

How the data were processed

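RNA from 8 tumours was extracted with TRIzol and made into TruSeq libraries, per the labels' protocols. The authors deposited TPM for 23918 Ensembl rat genes, and each column matched a sample title. Build rn6, DESeq2, bedtools, SAMtools 0.1.18 and STAR 2.4.0f1 appear in the submitters' processing notes, which give no roles. The sources used here do not give the tool behind TPM, the annotation or any removal of mouse reads. TPM keeps no depth, so no counting interval was computed.

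Groups came from titles. Replicate numbers follow accession order and pair nothing. The titles of 3 tumours in different groups share the letter E, whose meaning is not stated, and it was not used. Genes with at least 1 TPM in at least 2 libraries (13686, Maoa and Maob among them) were tested on log2(TPM + 1) computed from the deposited values; this scale understates changes of low genes such as Maob. limma 3.58.1 (R 4.3.3) fitted 4 group means to 8 libraries (4 residual degrees of freedom, variance trend, two-sided, 95% intervals). P-values were adjusted by Benjamini-Hochberg over all genes tested, and a gene was called below 0.05. The fit was tested on simulated data. Exact permutation tests and plots used Python 3.11.15 and matplotlib 3.10.9. The 7 comparisons share libraries.

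The genes named are the pair described and, by rule, the gene of mean at least 5 TPM that correlated best with each. Members and lists were chosen with earlier results of these data known. Of 47357 genes in the RefSeq table (GRCr8) none carries an Ensembl ID, so 13 lists of symbols (amine metabolism, cell type markers and others) could not be read. Promoter windows were matched by symbol. Alternatives were the pseudocount, the filter, the scaling, the variance trend, the groups fitted and each library left out.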

Additional observations from a re-analysis of the deposited data

How the results depend on the processing

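Neither gene was called under any alternative: 0 of 111 refits for Maoa (lowest adjusted p = 0.278) and 0 of 104 for Maob (lowest 0.126, without rapamycin replicate 1). The sign held for Maoa in all 55 refits that kept every library and turned in 6 of 56 that left out a library. For Maob it turned in 5 of 48 and 11 of 56. Some refits called no gene in the whole table, among them every comparison without control replicate 1 and every comparison without control replicate 2. The lack of a call for Maoa or Maob says little there. Many of the refits could not turn a sign. The filter, the variance trend and the groups fitted leave a log2 difference as it was. So does leaving out a library from outside the comparison. No value of Maob exists under a filter of 5 TPM, which it does not pass. With a pseudocount of 5 TPM its difference was -2.01e-05 for the clorgyline combination and 0.0035 for the rasagiline combination against control, and -0.0035 between the combinations. Against control, its clorgyline difference turned to -0.20 with quantile normalization and to -0.047 with median rescaling. For the rasagiline combination against control, Maob moved to -0.35 with quantile normalization. A pseudocount of 0.1 TPM moved Maob to -1.07 for rapamycin and -0.35 for the mean against control, and to 1.12 for the clorgyline combination and 1.05 for the rasagiline combination against rapamycin. The log2 ratio of Maoa to Maob, treated minus control, was 0.19 with a pseudocount of 0.1 TPM. Every comparison given here for a pseudocount of 0.1 TPM includes rapamycin replicate 2, where Maob stood at 0.206 TPM. No refit with this pseudocount left that library out. The cause of the changes under these settings was not tested.

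Leaving out each library gave log2 differences for Maoa of -0.40 to -0.02 (rapamycin against control), -0.40 to -0.01 (clorgyline combination against control), -0.15 to 0.084 (rasagiline combination against control), -0.27 to -0.03 (mean against control), -0.18 to 0.20 (clorgyline combination against rapamycin), -0.013 to 0.37 (rasagiline combination against rapamycin) and -0.36 to 0.022 (comparing the combinations). For Maob they were, in the same order, -1.26 to 0.37, -0.31 to 0.34, -0.42 to 0.41, -0.47 to 0.18, -0.35 to 1.28, -0.37 to 1.26 and -0.39 to 0.43. The log2 ratio of Maoa to Maob on TPM + 1, treated minus control, ranged from -0.21 to 0.20. These fits assume that a tumour left alone in its group varies like the other groups.

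The number of genes called over the whole table, 88, 2, 215, 334, 0, 2 and 3 in that order, moved with the setting. No filter gave 6, 4, 67 and 22 against control, and 0 for the rasagiline combination against rapamycin and 0 between the combinations. Without the variance trend the counts against control were 50 (rapamycin), 104 (rasagiline combination) and 137 (mean), with 1 for the rasagiline combination against rapamycin. Fitting only the groups compared gave 0 for rapamycin, 24 for the clorgyline combination and 598 for the rasagiline combination against control, and 0 for the rasagiline combination against rapamycin. A pseudocount of 0.1 TPM gave 1 (clorgyline combination) and 5 (rasagiline combination) against rapamycin. A pseudocount of 5 TPM gave 7 for the clorgyline combination against control, 6 for the rasagiline combination against rapamycin and 6 between the combinations. Median rescaling gave 1 for the clorgyline combination against control, and quantile normalization 1 for the rasagiline combination against rapamycin. Leaving out single libraries gave 0 to 1327, 0 to 140, 0 to 983, 0 to 1317, 0 to 441, 0 to 405 and 0 to 4. At an unadjusted limma p below 0.05 the counts were 2554, 1851, 2673, 2992, 1042, 795 and 629 of 13686 genes, in the same order. With no difference in any gene, a share of 0.05 would be expected below that threshold on average. No paired analysis was possible because the labels state no pairing across groups. The other pseudocounts and the leaving out of libraries in the exact permutation tests of single genes were added after seeing the data.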
